A study of Homo sapiens with 9 samples.

Results

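Integrins are the transmembrane receptors by which cells hold on to the extracellular matrix, and 10 of their subunit genes are described here in cells labelled HepG2 and given compounds that act on the cation channel TRPV2. The genes were chosen by symbol, with earlier results of these data known. They are ITGA2, ITGA3, ITGA5, ITGA6 and ITGAV, which encode alpha chains, and ITGB1, ITGB3, ITGB4, ITGB5 and ITGB8, which encode beta chains. Each symbol was matched to its Ensembl identifier among 61093 listed genes, and all 10 passed the filter on low values and were among the 17492 genes tested. The 16 other integrin subunit genes serve as a comparison.

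RNA-seq libraries were made from 9 samples labelled HepG2, an established human hepatocellular line, in 3 groups of 3. Control cells carry the treatment label NULL, SKF-96365 cells received the compound that the series text calls an inhibitor of TRPV2, and 2-APB cells received the compound that it calls an agonist. Both compounds are known to act on other calcium channels too. The 2-APB samples are titled ABP and their value columns carry the name TRPV2, and only the treatment label puts them in this group. No dose, exposure time or vehicle is given, and nothing says whether the libraries of a group came from separate cultures, so the p-values measure only the spread between these samples, which may be technical. All values are normalized counts, that is, reads per gene after the authors' scaling of each library. Bulk RNA cannot tell fewer cells of a type from less RNA per cell.

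Every integrin is a pair of 1 alpha and 1 beta chain, and the pair sets which ligand is bound. The beta 1 chain pairs with most alpha chains, giving receptors for collagen (with alpha 2), laminin (alpha 3 and alpha 6) and fibronectin (alpha 5). The alpha v chain pairs with several beta chains to bind ligands that carry the RGD tripeptide and to act on latent TGF-beta, while beta 4 pairs with alpha 6 alone and anchors epithelial cells to laminin through hemidesmosomes.

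Depth was 14786059 to 19026545 recovered reads over the 8 libraries whose whole reads could be recovered, and it is uncertain for SKF-96365 3. Markers of hepatocytes went against the label: the 10 genes summed to 219 to 555 normalized counts in control, 332 to 427 with SKF-96365 and 270 to 350 with 2-APB. Of them 1 was tested, SERPINA1, and the albumin gene ALB averaged 4.24 normalized counts. Leukocyte markers summed to 38.9 to 57.8 normalized counts in control, 52.6 to 60.6 with SKF-96365 and 48.3 to 85.0 with 2-APB, with CD3E at 0 in all libraries. The endothelial markers summed to 8.42 to 66.8, 9.92 to 27.1 and 6.87 to 24.7. The 5 megakaryocyte and platelet markers summed to 80.1 to 106, 90.8 to 118 and 87.7 to 106, led by GP1BA (mean 54.9) and ITGA2B (42.1), while GP9 and PPBP were at 0. The 5 epithelial markers were led by KRT8 (mean 79421) and KRT18 (41837), while CDH1 averaged 42.4 and EPCAM 6.32. The 7 mesenchymal markers were led by VIM (31329) and FN1 (5824), while COL1A2 averaged 13.7. The part of these marker lists in the integrin levels was not tested. Over all tested genes, 4 libraries stood nearest to a library of another group: control 1 and SKF-96365 1 to 2-APB 3, control 3 to SKF-96365 2, and 2-APB 3 to SKF-96365 1. Over the 10 integrin genes alone, control 1, control 3 and SKF-96365 1 had the same nearest library, 2-APB 3 stood nearest to control 1, and control 2 nearest to 2-APB 2. Whether the labels of these libraries match their treatments was not tested, so every group difference rests on the labels as given, and values are shown library by library.

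Sequence before a RefSeq start is shown for the shared beta chain and for the 3 genes whose groups did not overlap in a comparison with control. RefSeq (GRCh38.p14) starts were matched for 7 of the 10 genes, in 12 windows of 250 bases before a start. ITGA3, ITGB3 and ITGB4 were not matched. For genes with several starts, the window of highest GC content was used, and the longest stretch outside GENCODE 29 exons is printed 5′ to 3′. For ITGA6 and ITGB5 this window lies downstream of another start of the same gene, so it may be transcribed from that start. Capitals mark the letters searched on both strands: GGGCGG (the GC box), GGAATG (TEAD factors), CCGGAA (ETS factors) and TGANTCA (AP-1), with no overlap between motifs in the printed stretches. The stretches lie at chr10:32958233-32958480 (minus strand, ITGB1), chr5:52989102-52989325 (plus, ITGA2), chr2:172427471-172427554 (plus, ITGA6) and chr3:124887366-124887599 (minus, ITGB5).
ITGB1: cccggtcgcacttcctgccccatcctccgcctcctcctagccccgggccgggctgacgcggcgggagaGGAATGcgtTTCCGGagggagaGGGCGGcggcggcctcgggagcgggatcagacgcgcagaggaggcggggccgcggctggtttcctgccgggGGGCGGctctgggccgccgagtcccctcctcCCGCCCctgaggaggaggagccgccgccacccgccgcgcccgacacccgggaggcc
ITGA2: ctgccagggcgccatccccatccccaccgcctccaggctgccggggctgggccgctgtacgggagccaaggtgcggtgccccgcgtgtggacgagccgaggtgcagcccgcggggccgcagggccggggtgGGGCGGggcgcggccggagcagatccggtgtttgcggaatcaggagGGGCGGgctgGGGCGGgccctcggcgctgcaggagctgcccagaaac
ITGA6: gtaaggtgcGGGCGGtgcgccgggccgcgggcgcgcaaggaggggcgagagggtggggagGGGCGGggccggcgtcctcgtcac
ITGB5: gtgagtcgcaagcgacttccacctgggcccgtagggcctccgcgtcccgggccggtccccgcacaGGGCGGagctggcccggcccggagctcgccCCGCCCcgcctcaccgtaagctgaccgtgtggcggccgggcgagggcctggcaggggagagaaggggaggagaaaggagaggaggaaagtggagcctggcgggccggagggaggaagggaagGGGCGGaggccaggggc

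The GC box was present in 7 of the 12 integrin windows, belonging to 6 of the 7 matched genes, against 42.6% of all 35116 windows of this length. ITGAV was the matched gene without it. The ITGB1 window held 3 GC boxes, 1 TEAD motif and 1 ETS motif. The TEAD letters were found in 2 integrin windows (11.9% of all windows) and the ETS letters in 3 (14.5%), while the AP-1 letters were in 0 (6.57%). GC content of the windows printed in part ran from 71.6% for ITGA6 to 78.4% for ITGB1, a range that the choice of window favours. The unprinted windows of these genes had 50.8% (ITGA6), 41.6% (ITGB1), and 52.8% and 56.4% (ITGB5), and the median over all windows was 58%. These matches describe the letters only, and no binding data were used.

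Per length of transcript, ITGB1 and the chains of the laminin receptors (ITGA6, ITGA3 and ITGB4) stood at the top. Normalized counts per kilobase of exon averaged 3593 for ITGB1 over the 9 libraries (2945 to 4967), 2855 for ITGA6 (1564 to 3842), 2667 for ITGA3 (2118 to 3557) and 1286 for ITGB4 (603 to 1900). ITGAV, ITGA5 and ITGB5 followed at 418.5, 290.1 and 235.7 per kilobase, and ITGB3 and ITGA2 at 93.8 and 76.7. ITGB8, whose product pairs with alpha v in the release of active TGF-beta, averaged 2.51 per kilobase and ranked 20 of the 26 integrin subunit genes. Among the other subunits, the highest was ITGA4, an alpha chain known from leukocytes, at 161.5, which lay between ITGB5 and ITGB3.

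Several neighbours in this order could not be separated. ITGB1 exceeded ITGA6 in 7 of 9 libraries, ITGA6 exceeded ITGA3 in 3 of 9, and ITGB3 exceeded ITGA2 in 6 of 9. The ranges of ITGA3 and ITGB4, of ITGB4 and ITGAV, of ITGB5 and ITGB3, and of ITGA2 and ITGB8 did not overlap. With the length of the longest coding transcript in place of all exons, ITGA3 exceeded ITGA6 in all 9 libraries, and ITGAV exceeded ITGA5 in 4 of 9 instead of 9.

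**Figure D1:**
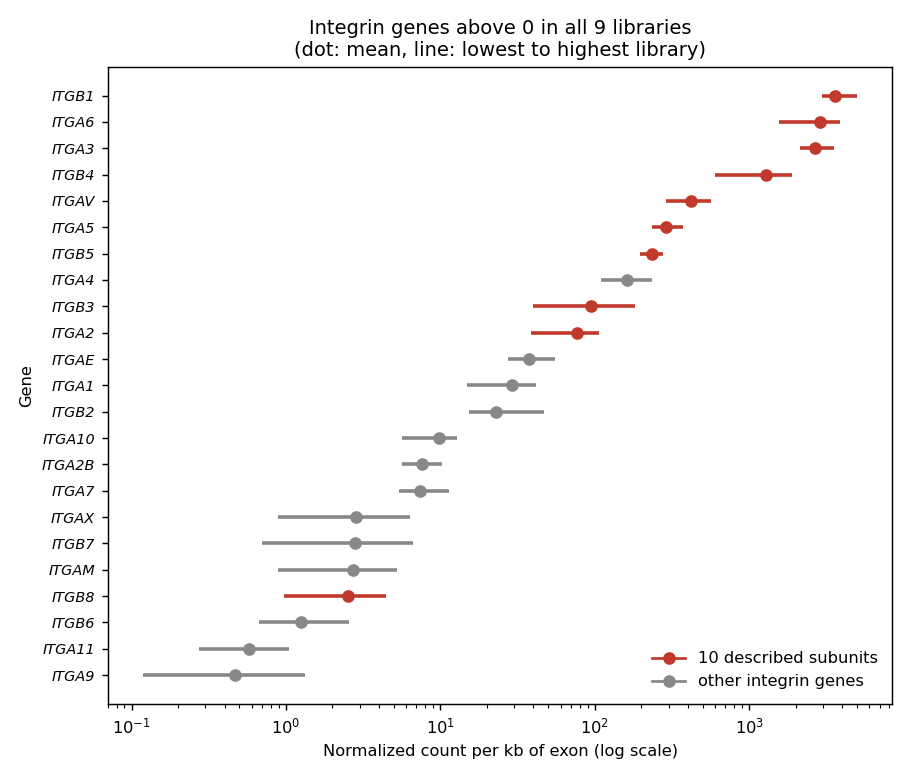
Normalized counts per kilobase of exon (log axis) for the integrin subunit genes above 0 in all 9 libraries, with a dot at the mean and a line from the lowest to the highest library, the 10 described genes in red and the others in grey. ITGB1, ITGA6 and ITGA3 overlap at the top, ITGB4 lies below ITGA3 with no overlap, and ITGB8 averages 2.51 per kilobase.

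ITGB1, the beta chain shared by most receptors here, had 18277, 17702 and 25161 normalized counts in control 1 to 3. It had 19434, 27853 and 29856 in SKF-96365 1 to 3 and 18878, 19536 and 17702 in 2-APB 1 to 3. Control 3, SKF-96365 2 and SKF-96365 3 were high, the other 6 libraries lay between 17702 and 19536, and each pair of groups overlapped. The processed pseudogene ITGB1P1 followed the same order of high libraries, with 896 to 1337 normalized counts, and may share reads with ITGB1. With both added together the ITGB1 differences were 0.33, -0.10 and -0.43 in SKF-96365 against control, 2-APB against control and 2-APB against SKF-96365, on the log2 scale.

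ITGA3, which with beta 1 forms a laminin receptor, had 20760, 23212 and 33622 normalized counts in control, 23360, 34868 and 32609 with SKF-96365 and 22478, 22509 and 21853 with 2-APB. Its high libraries were again control 3, SKF-96365 2 and SKF-96365 3, and the 3 2-APB libraries lay below all SKF-96365 libraries. ITGA5, the alpha chain of the main fibronectin receptor, had 1911, 1958 and 2801 in control, 2141, 2779 and 2562 with SKF-96365 and 1781, 1835 and 2015 with 2-APB. It shared both features: the same 3 libraries were highest, and 2-APB lay below SKF-96365 with no overlap.

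ITGA2, which with beta 1 forms a collagen receptor, differed from these in its library order. Its normalized counts were 457, 303 and 715 in control, 796, 795 and 837 with SKF-96365 and 467, 517 and 577 with 2-APB. The SKF-96365 libraries were the 3 highest, agreeing to within 3.00% (SD as percent of the mean), and lay above every control and every 2-APB library. Control spread over 303 to 715 and held both the lowest library and the highest outside SKF-96365.

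ITGA6, the laminin-binding partner of both beta 1 and beta 4, had 19666, 10220 and 18035 normalized counts in control, 25099, 20980 and 21733 with SKF-96365 and 14040, 14662 and 23422 with 2-APB. All SKF-96365 libraries exceeded all control libraries, but 2-APB 3 was the second highest of the 9. Control 2, 2-APB 1 and 2-APB 2 were the lowest. The antisense gene PDK1-AS1 shares 52 exon bases with ITGA6 and averaged 119 normalized counts, and the strand setting of the counting is not given in the sources used here.

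ITGB4, the hemidesmosome beta chain, ran in another order, with 4074, 7413 and 12205 normalized counts in control, 4673, 12843 and 11663 with SKF-96365 and 10344, 10411 and 4614 with 2-APB. Each group held 1 library between 4074 and 4673, namely control 1, SKF-96365 1 and 2-APB 3. The other 6 libraries lay between 7413 and 12843, so the groups overlapped throughout.

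ITGAV, the alpha chain shared by the RGD-binding pairs, had 2635, 3007 and 3828 normalized counts in control, 2495, 4479 and 4655 with SKF-96365 and 3678, 3775 and 2373 with 2-APB. The lowest 3 libraries were the same as for ITGB4, again 1 from each group. ITGB3, which with alpha v forms the vitronectin receptor, had 174, 336 and 669 in control, 214, 759 and 799 with SKF-96365 and 285, 289 and 185 with 2-APB. Its highest library was 4.60 times its lowest, the widest ratio of the 10 genes, and control 3, SKF-96365 2 and SKF-96365 3 stood apart from the other 6 libraries, whose highest was 336. A read-through gene on the same strand, sharing 2266 of the 4394 exon bases of ITGB3, was listed at 0. How reads in the shared stretch were counted is not given, so ITGB3 levels per kilobase and its ratios may be too low.

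ITGB5, another partner of alpha v, was the least variable gene: 1505, 1491 and 1778 normalized counts in control, 1454, 1694 and 1724 with SKF-96365 and 1258, 1291 and 1481 with 2-APB. All 2-APB libraries were below all control libraries, and the highest library was 1.41 times the lowest. ITGB8 had 21.0, 66.9 and 56.4 normalized counts in control, 24.5, 43.2 and 44.6 with SKF-96365 and 32.9, 38.6 and 14.8 with 2-APB. It rested on 15 to 66 recovered reads per library, so counting error is larger for it than for the others, and its groups overlapped.

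**Figure D2:**
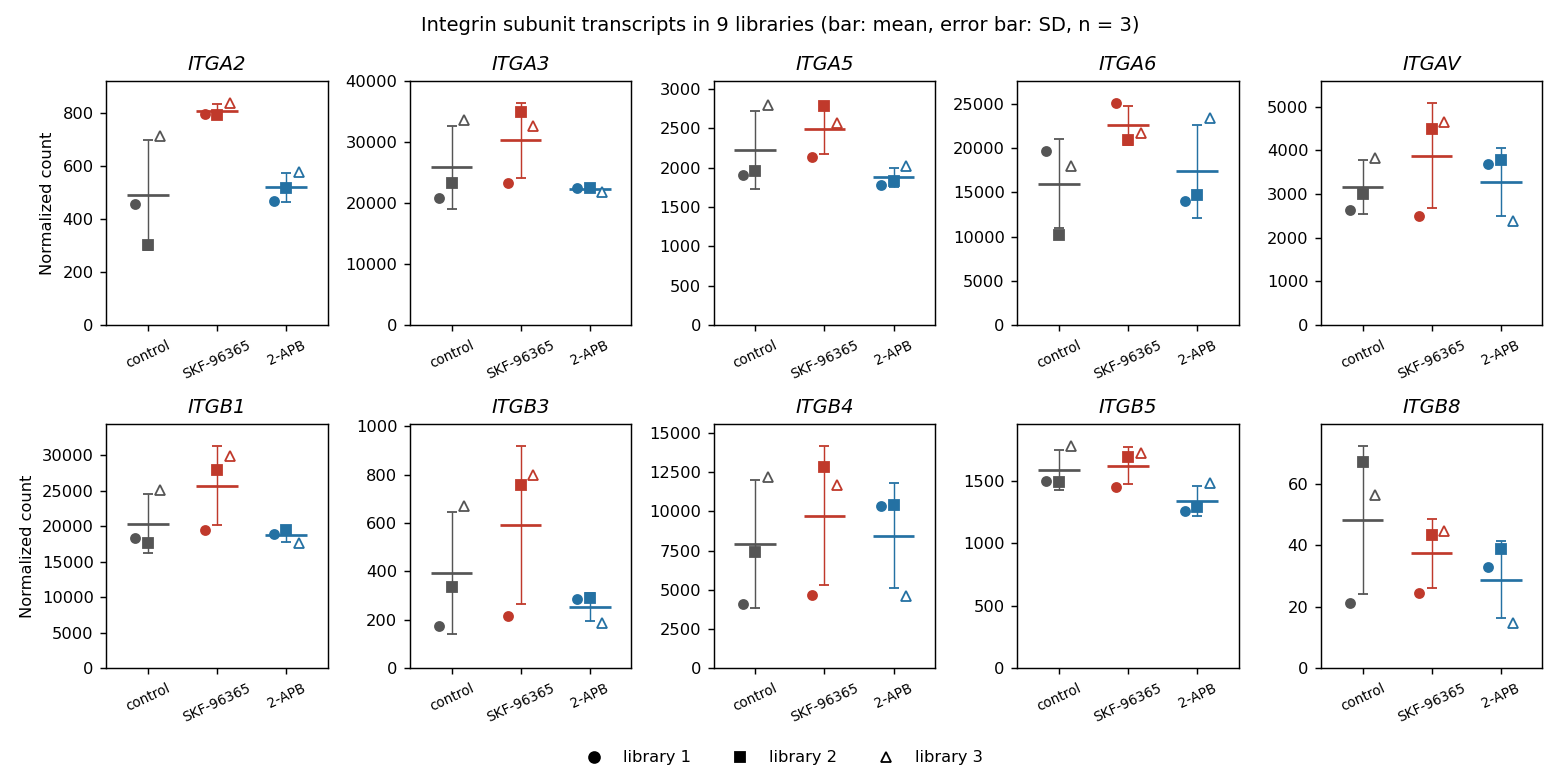
Normalized counts of the 10 integrin subunit genes, 1 panel per gene, with a symbol for each library (circle 1, square 2, open triangle 3), a horizontal line at each group mean and an error bar of 1 SD (n = 3). For ITGA2 and ITGA6 all SKF-96365 libraries lie above all controls, while for ITGA3, ITGB1 and ITGB3 control 3 lies with SKF-96365 2 and 3.

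For 7 of the 10 genes (ITGA3, ITGA5, ITGAV, ITGB1, ITGB3, ITGB4 and ITGB5) the 3 highest libraries were control 3, SKF-96365 2 and SKF-96365 3. The exceptions were ITGA2, ITGA6 and ITGB8. For 4 genes (ITGAV, ITGB3, ITGB4 and ITGB8) the 3 lowest were control 1, SKF-96365 1 and 2-APB 3. By the root mean square difference of log2 levels over the 10 genes, SKF-96365 2 and 3 differed by 0.085 and 2-APB 1 and 2 by 0.092. Control 3 lay 0.18 from SKF-96365 2 and 0.84 from the other control libraries on average, and control 1 lay 0.22 from 2-APB 3. By the same measure over all tested genes, control 3 was also nearest to SKF-96365 2 (0.42). Control 1 (0.48) and SKF-96365 1 (0.44) were nearest to 2-APB 3, so these groupings are not particular to the integrin genes. The share of all genes with the same highest or lowest libraries was not counted.

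The 8 proliferation markers, whose levels follow dividing cells, moved with these libraries. Their summed normalized counts were 45098, 51374 and 26801 in control, 34421, 27740 and 29137 with SKF-96365 and 35702, 36981 and 41190 with 2-APB. The sum was lowest in control 3, SKF-96365 2 and SKF-96365 3, where 7 integrin genes were highest, and its part in the integrin levels was not tested.

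**Figure D3:**
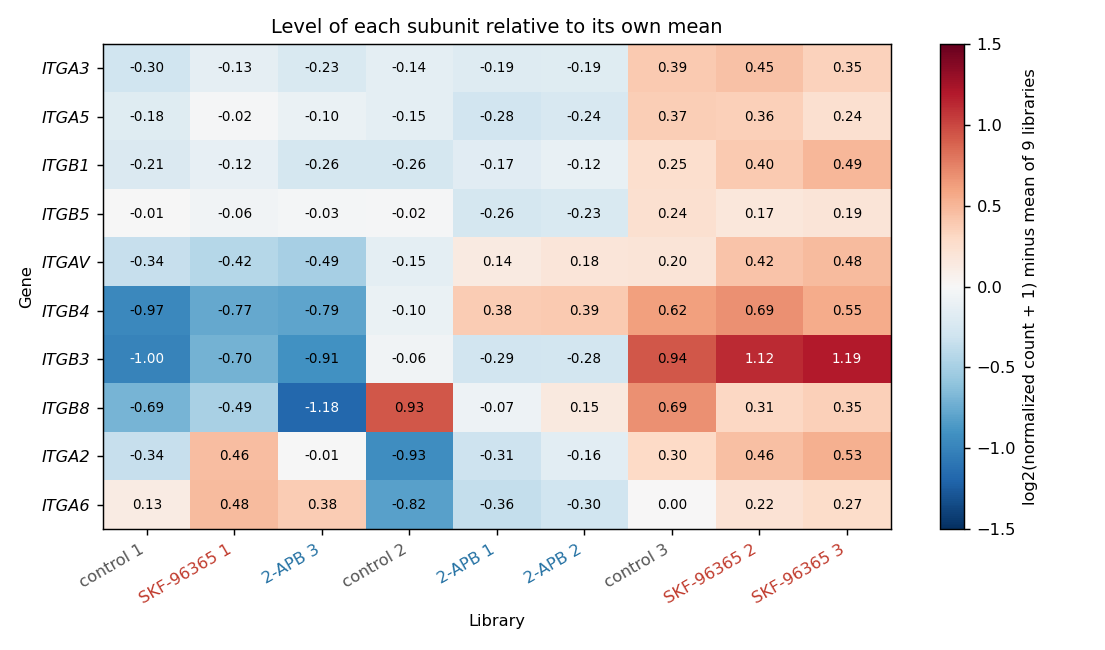
Log2(normalized count + 1) of the 10 genes (vertical axis) in the 9 libraries (horizontal axis), each gene with its mean subtracted, red above and blue below it. Libraries are in an order chosen by hand, not by group or by calculation, and their names are coloured by group. Control 3 was placed beside SKF-96365 2 and 3, and control 1 beside SKF-96365 1 and 2-APB 3. ITGA6 differs in pattern from ITGB3, ITGB4 and ITGB8.

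The genes were alike in pattern to different degrees. With each gene centred over the 9 libraries, the root mean square log2 difference was 0.090 between ITGA3 and ITGB1, which encode the partners of 1 receptor, 0.091 between ITGA3 and ITGA5 and 0.11 between ITGA5 and ITGB5. The least alike pairs were ITGA6 with ITGB8 (0.93), with ITGB3 (0.91) and with ITGB4 (0.84), the last being its own partner. Genes of small spread are closer by this measure. For the 2 most variable genes, the closest of 12381 genes with a mean of at least 50 were PAG1 (0.19), C1R (0.20) and PIM1 (0.23) for ITGB3, and FADS2 (0.23), DPP4 (0.23) and HMGCS1 (0.24) for ITGB8.

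Ratios of partner chains within each library, per kilobase, were taken for 9 pairs, and the widest spread was that of ITGB4 over ITGA6, at 3.96-fold. ITGB4 over ITGA6 was 0.200, 0.701 and 0.654 in control, 0.180, 0.592 and 0.519 with SKF-96365 and 0.712, 0.686 and 0.190 with 2-APB. It took 2 levels, 0.180 to 0.200 in control 1, SKF-96365 1 and 2-APB 3, and 0.519 to 0.712 in the other 6 libraries, so that each group held 1 library at the lower level. The group difference in log2 ratio was -0.24 for SKF-96365 against control (two-sided exact permutation p = 0.5, n = 3 per group), where the smallest p this design allows is 0.1.

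ITGA6 over ITGB1 separated the same libraries in the other direction, with ratios of 0.990 (control 1), 1.19 (SKF-96365 1) and 1.22 (2-APB 3), against 0.531 to 0.693 in the other 6. Neither ratio says which of its chains moved.

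ITGB3 over ITGAV was 0.123, 0.209 and 0.327 in control, 0.160, 0.317 and 0.321 with SKF-96365 and 0.145, 0.143 and 0.146 with 2-APB. The 2-APB ratios were nearly equal and lay below all SKF-96365 ratios (log2 difference -0.81, exact permutation p = 0.1). ITGB5 over ITGAV was 0.727, 0.632 and 0.592 in control, 0.742, 0.482 and 0.472 with SKF-96365 and 0.436, 0.436 and 0.795 with 2-APB. Its groups overlapped, and its 3 highest libraries were again control 1, SKF-96365 1 and 2-APB 3. ITGB8 over ITGAV ran from 0.00338 in 2-APB 3 to 0.0121 in control 2, a 3.57-fold spread that rests on few ITGB8 reads. ITGA3 over ITGB1 stayed between 0.670 and 0.819. Over the 27 permutation tests of 9 pairs, no exact p adjusted by Benjamini-Hochberg was under 0.675. As no exact p can be under 0.1 with these groups, no pair could have been called, whatever its ratios.

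**Figure D4:**
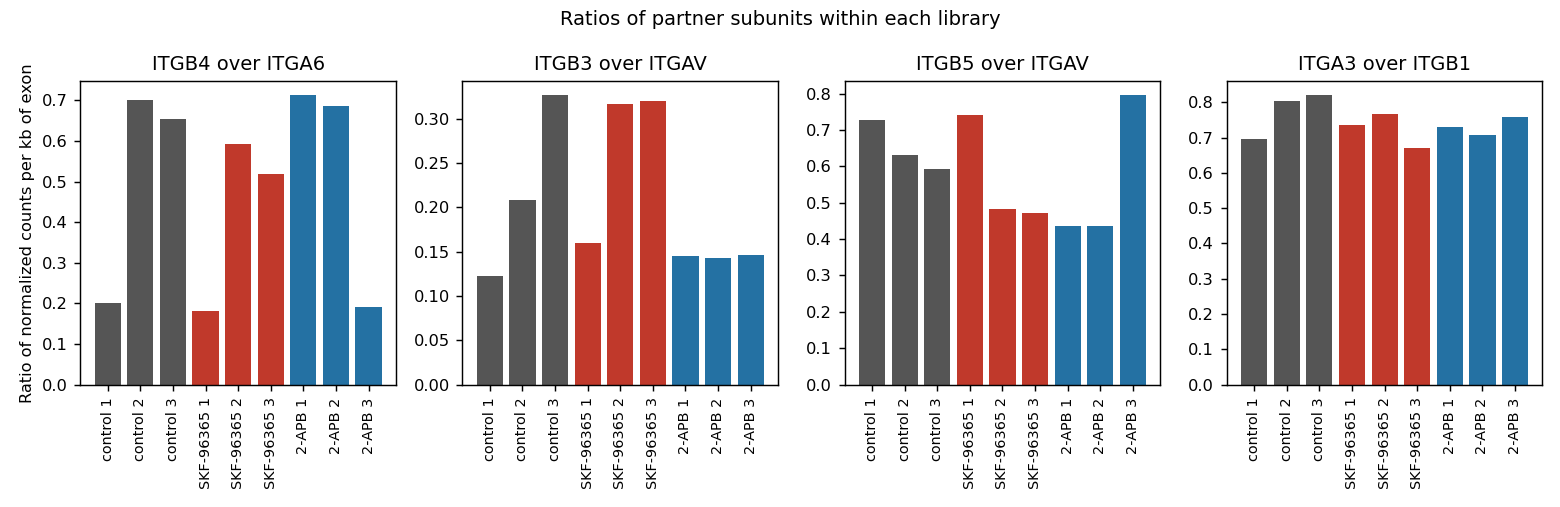
Ratio of normalized counts per kilobase of exon for 4 pairs of partner chains, 1 bar per library from 0, grey for control, red for SKF-96365 and blue for 2-APB. ITGB4 over ITGA6 has 1 library of each group at 0.180 to 0.200 and the others at 0.519 or above, while ITGA3 over ITGB1 lies between 0.670 and 0.819.

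SKF-96365 against control asks what the labelled inhibitor does to these genes. ITGA2 had the largest difference: 809 ± 24.3 normalized counts with SKF-96365 against 492 ± 208 in control (SD, n = 3), a log2 fold change of 0.80 (SE 0.25, 95% interval 0.25 to 1.36). It had an unadjusted p of 0.00911 but did not pass adjustment (limma adjusted p = 0.789). ITGA6 averaged 22604 ± 2193 against 15974 ± 5049, a log2 fold change of 0.55 (SE 0.26, interval -0.027 to 1.13). Leaving out 1 library moved ITGA2 to 0.50 (without control 2) or 1.12 (without control 3), and ITGA6 to 0.26 (without control 2) or 0.73 (without control 1). With all libraries, limma called 0 of the 10 integrin genes, beside 0.00% of all genes tested, and 1 had an unadjusted p under 0.05, beside 4.00% of all genes.

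Of the 10 estimates for SKF-96365 against control 9 were positive, beside 49.5% of all genes, and their median was 0.28 against -0.0043 over all genes. Most of these genes were high in the same libraries and all were chosen with earlier results known, so their signs are not independent. ITGB1 stood at 0.33 (SE 0.19), ITGB3 at 0.58 (SE 0.55), ITGB4 at 0.31 (SE 0.48) and ITGA3 at 0.24 (SE 0.20), each with an interval that includes 0. Single libraries moved these values as well: ITGB3 was 0.095 without control 1 and 1.20 without SKF-96365 1, ITGA3 was 0.095 without control 1 and 0.44 without control 3, and ITGB1 was 0.21 without SKF-96365 3 and 0.52 without SKF-96365 1. ITGB5 was at 0.030 (SE 0.12), and ITGB8 was the negative one at -0.25 (SE 0.49). ITGA2 and ITGA6 lay above control in all libraries, and 3.26% of all genes did so. The integrin genes together took 0.411%, 0.385% and 0.592% of the signal in control and 0.480%, 0.632% and 0.616% with SKF-96365, so control 3 lay with SKF-96365 2 and 3 for the sum too.

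2-APB against control gave no integrin gene with an adjusted p below 0.9995 in limma, and called 0 of 10, beside 0.00% of all genes. The estimates were positive for 4 genes (49.7% of all genes) and negative for 6, with a median of -0.14 against -0.0016 over all genes. The integrin genes with an unadjusted p under 0.05 numbered 0, beside 2.80% of all genes. ITGB5 averaged 1343 ± 120 with 2-APB against 1591 ± 162 in control, a log2 fold change of -0.24 (SE 0.12, interval -0.52 to 0.033). It was the gene whose 2-APB libraries lay below every control, as did 3.97% of all genes. ITGB8 was at -0.67 (SE 0.49), with -1.17 without control 1 and -0.27 without 2-APB 3, and ITGB3 at -0.45 (SE 0.55), while ITGA2 was at 0.16 (SE 0.25) and ITGAV at 0.040 (SE 0.26). The integrin share of the signal was 0.452%, 0.459% and 0.450%, within the range of control.

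2-APB against SKF-96365, the direct comparison of the labelled agonist and inhibitor, gave estimates of 1 sign. All 10 were negative, where 51.0% of all genes were above 0, and the median was -0.42 against 0.0073 over all genes. This comparison shares its libraries with both comparisons against control. Here too the genes vary together and were chosen with earlier results known, so their signs are not independent. ITGA2 was at -0.64 (SE 0.25, interval -1.20 to -0.084), ITGA5 at -0.40 (SE 0.16, interval -0.76 to -0.043) and ITGB1 at -0.44 (SE 0.19, interval -0.85 to -0.018). These 3 genes had unadjusted p under 0.05, beside 7.30% of all genes, but limma called 0 of 10 after adjustment, beside 0.00%, with adjusted p from 0.684 to 0.924. ITGA2, ITGA3 and ITGA5 lay below SKF-96365 in all 2-APB libraries, as did 8.79% of all genes. ITGB3 had the lowest estimate, -1.03 (SE 0.55), which was -1.65 without SKF-96365 1 and -0.70 without SKF-96365 3. ITGB1 was -0.63 and -0.32 without these libraries.

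**Figure D5:**
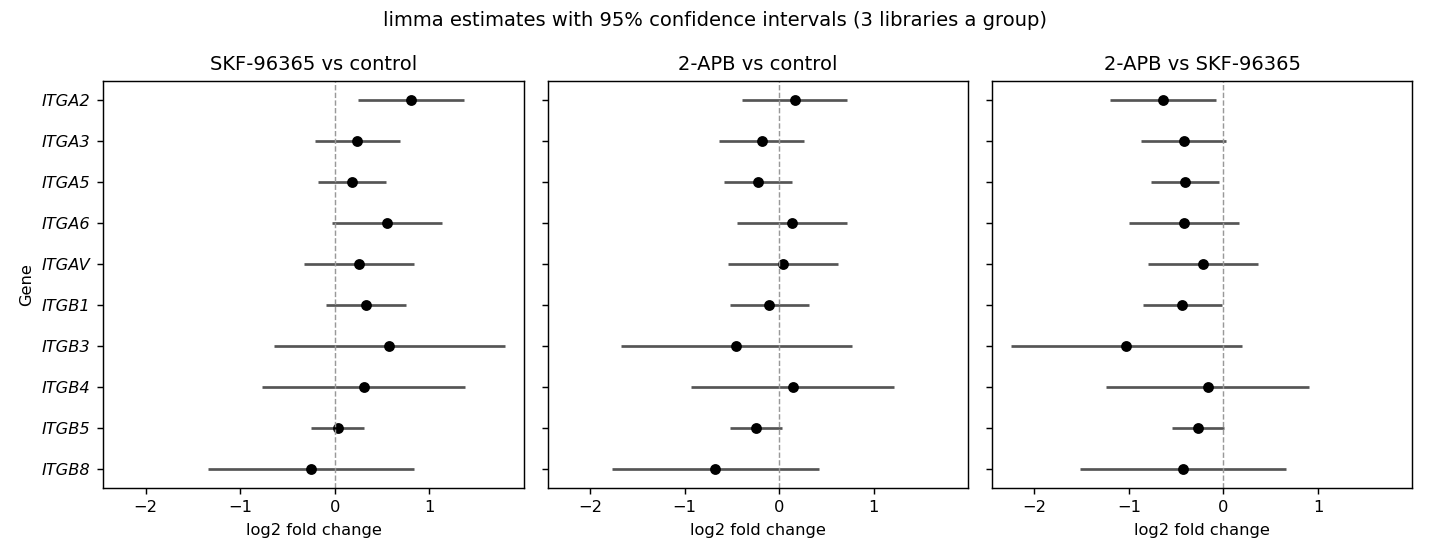
Log2 fold changes (dots) of the 10 genes in the 3 comparisons, from the limma fit over all 9 libraries, with 95% intervals (lines) and a dashed line at 0. ITGA2 lies at 0.80 for SKF-96365 against control, all 10 genes lie below 0 for 2-APB against SKF-96365, and no gene passed adjustment.

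These differences depend on which libraries are counted. Without control 3, ITGA2 rose with SKF-96365 (log2 fold change 1.12, limma adjusted p = 0.0403), as 1 of the 10 genes, beside 0.635% of all genes called higher. Adjusted p for ITGA2 ran from 0.00151 to 0.9999 over all alternatives. In fits chosen after seeing the data, which left out control 3 and SKF-96365 1, 7 integrin genes were called higher with SKF-96365 (ITGA2, ITGA3, ITGA5, ITGAV, ITGB1, ITGB3 and ITGB4), beside 13.1% of all genes. ITGB3 was at 1.68, ITGB4 at 1.16, ITGAV at 0.70, ITGB1 at 0.68, ITGA3 at 0.62 and ITGA5 at 0.46. ITGA6, at 0.59, was not called.

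The same fits called 6 genes lower with 2-APB than with SKF-96365 (ITGA2, ITGA3, ITGA5, ITGB1, ITGB3 and ITGB5), beside 6.61% of all genes, with ITGB3 at -1.65 and ITGB5 at -0.35. With 2-APB 3 left out as well, ITGAV (0.40) and ITGB4 (0.92) were called higher with 2-APB than in control, beside 4.13% of all genes. The libraries were left out because they stood with another group in these same data, so these p-values are too small and support no call.

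Ligands and partners from the integrin pathway were tabulated beside the receptors, and none passed the limma test in any comparison. These lists were also chosen with earlier results known, and genes that vary together over the libraries do not give independent signs. For the laminins and basement membrane ligands of the beta 1 and beta 4 receptors, 15 of 16 genes were tested. All 15 estimates were positive for SKF-96365 against control, beside 49.5% of all genes, with a median of 0.28. For 2-APB against control 2 were positive and 13 negative, where 49.7% of all genes were positive. For 2-APB against SKF-96365 the numbers were 1 and 14, where 51.0% of all genes were positive. LAMC1, the laminin gamma 1 chain, was at 0.40 (SE 0.25), and HSPG2, the proteoglycan perlecan, at 0.60 (SE 0.45) for SKF-96365 against control. The summed level of this list was highest in control 3, SKF-96365 2 and SKF-96365 3, as for the 7 integrin genes.

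The RGD ligands of the alpha v and alpha 5 receptors had 7 positive and 4 negative estimates for SKF-96365 against control. THBS1, which encodes thrombospondin 1, was at -0.49 (SE 0.29), and FN1, fibronectin, at 0.20 (SE 0.56). THBS1 had 48946, 98109 and 38365 normalized counts in control and 33899, 44096 and 44824 with SKF-96365, so control 2 weighs on its estimate. All 8 fibrillar and microfibrillar collagens, ligands of alpha 2 beta 1 among others, were positive for SKF-96365 against control, beside 49.5% of all genes. For 2-APB against control 6 of 8 were positive, beside 49.7% of all genes. COL6A2 was at 0.71 (SE 0.35) and 0.29 (SE 0.35) in these comparisons. Among the genes of latent TGF-beta, a ligand of the alpha v receptors, 5 of 5 were positive in both comparisons with control, and TGFB1 was at 0.13 (SE 0.15) and 0.081 (SE 0.15).

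Inside the cell the pattern was mixed. The talins, kindlins and actin linkers, which tie beta chains to actin, had 12 positive and 13 negative estimates of 25 for SKF-96365 against control, with a median of -0.013. The focal adhesion kinase gene PTK2, from the list of adhesion kinases and scaffolds (7 positive and 4 negative), was at 0.031 (SE 0.10). Genes for inhibitors and trafficking of integrins had 2 positive and 5 negative estimates of 7 tested. The tetraspanins and other lateral partners had 8 positive of 10, with CD151, a partner of the laminin-binding integrins, at 0.079 (SE 0.14). Of the 3 hemidesmosome genes that act with ITGB4, 1 was positive and PLEC, plectin, was at -0.17 (SE 0.16). The other alpha subunits had 4 positive and 4 negative of 8 tested, with ITGA4 at 0.32 (SE 0.28), and the other beta subunits 1 of each.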

How the data were processed

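The deposited table holds a normalized signal: gene counts that the authors divided by 1 DESeq2 size factor per library, per the submitters' processing notes (version not given). The aligner, the counting tool and its strand setting, the annotation and the genome build are not given in the sources used here. Of 61093 listed genes, 60605 had an Ensembl identifier, and the other 488 had no gene name. A symbol was found for 60463, and GENCODE 29 gave 130 more. In each library 100% of values were whole multiples of 1 step, within 0.001 of a read, and whole reads were recovered for 8 libraries (14786059 to 19026545 reads, which cover counting error only). SKF-96365 3 was left out there because its step of 0.992 could be rounding.

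The test was limma 3.58.1 (R 4.3.3) with a variance trend on log2(normalized count + 1), over 17492 genes with at least 10 in at least 3 of 9 libraries. The 3 groups of 3 shared 1 estimate of the spread, contrasts were two-sided, and a gene was called where its p, adjusted by Benjamini-Hochberg over all genes tested, was under 0.05. Fold changes on this scale understate changes of low genes. edgeR 4.0.16 and DESeq2 1.42.0 were run on the recovered reads: edgeR called 0 genes in each comparison, and DESeq2 called 2, 0 and 1. The fits were tried on simulated counts in which genes varied independently. Genes varied together over the real libraries, so that trial does not cover the spread in these data. Ratios of partner genes were compared by exact permutation tests.

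The 10 integrin genes and all gene lists were chosen with earlier results of these data known. The text names all 10 genes, the called members or up to 3 highest members of each list, and the 3 genes closest to the 2 most variable integrin genes. Levels between genes were compared per kilobase of GENCODE 29 exon. Alternatives were another pseudocount (0.5 or 5), filter, scaling, prior or variance trend, a block on the replicate number, a fit to the compared groups alone, the count models, and each library dropped in turn.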

Additional observations from a re-analysis of the deposited data

How the results depend on the processing

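With planned settings other than leaving out each library in turn, the integrin fold changes kept direction and side of the threshold in 355 values and changed sign in 2. Both were ITGB5 for SKF-96365 against control, at -0.0085 with edgeR and -0.013 with DESeq2, against 0.030. These 2 count models ran on 8 libraries, without SKF-96365 3, and limma without that library gave -0.015. The number of genes called went from 0 to 2 (SKF-96365 against control) and 1 (2-APB against SKF-96365) with DESeq2, and to 4 for the latter with only those 2 groups in the fit. No integrin gene was among them. At an unadjusted p under 0.05, limma on all 9 libraries counted 699, 489 and 1277 of 17492 genes in the 3 comparisons. On the 8 libraries without SKF-96365 3, edgeR counted 276, 398 and 522 of 18033 genes, and DESeq2 253, 362 and 508 of 18261. Without that library limma counted 248, 376 and 478, so the counts of the tools on unlike libraries are not a comparison of tools.

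Leaving out each library in turn, genes called ranged from 0 to 173, 0 to 0 and 0 to 4, and integrin genes called from 0 to 1, 0 to 0 and 0 to 0, with the highest counts without control 3. Of the integrin values, 247 kept direction and call, 22 changed sign and 1 passed the threshold. Ranges that cross 0 were, for SKF-96365 against control, ITGB4 -0.099 to 0.77, ITGB5 -0.015 to 0.11 and ITGB8 -0.75 to 0.064. For 2-APB against control they were ITGA2 -0.14 to 0.48, ITGA3 -0.33 to 0.021, ITGA6 -0.16 to 0.32, ITGAV -0.082 to 0.26, ITGB1 -0.20 to 0.055, ITGB3 -0.93 to 0.038 and ITGB4 -0.26 to 0.53. For 2-APB against SKF-96365 ITGB4 ran from -0.63 to 0.22.

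In fits added after seeing the data, leaving out control 3 and SKF-96365 1 called 4823, 0 and 2283 genes and 7, 0 and 6 integrin genes. Leaving out 2-APB 3 as well called 6569, 1735 and 2575 genes and 7, 2 and 7 integrin genes. ITGB8 for SKF-96365 against control became 0.21 in both. For 2-APB against control, ITGA3 became 0.021 and 0.035, ITGB1 0.055 and 0.094, and ITGB3 0.038 and 0.25. The cause was not tested.

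With the replicate number as a block, 0 genes were called in each comparison (717, 431 and 1259 at an unadjusted p under 0.05), and ITGA2 for SKF-96365 against control had a limma adjusted p of 0.8105. Same-numbered libraries correlated from -0.35 to 0.50 in their deviations from the group means, and libraries of different numbers from -0.57 to 0.48. These overlapping values do not decide whether the numbers pair the samples. Depth limits ITGB8, which had at most 66 recovered reads in a library.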
